A study of Mus musculus with 2 samples.

Results

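Telomere maintenance and Zscan4 genes were described in 2 clones of mouse epiblast stem cells (EpiSC), which are pluripotent and resemble the epiblast of the implanted embryo. The set held 10 genes chosen by name: Tert, Terf1, Terf2, Pot1a, Tinf2, Dkc1, Rif1, Zscan4c, Zscan4d and Zscan4f. Of these, 9 had at least 1 probe under their own name, and together they had 14 of the 39429 probes on the array. Zscan4d had no probe of its own. Clone 1 and clone 2 were both at passage 9, wildtype, female and of C57BL/6 background, with no treatment beyond trypsin for collection, and each was measured on 1 Agilent array. Each clone is a single line at a single passage, so the difference between the arrays has no replicate check and no p-value is given.

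Telomeres are repeats of TTAGGG at chromosome ends, and the shelterin complex covers them so that they are not read as broken DNA. Telomerase, a reverse transcriptase with an RNA template, adds new repeats and is active in pluripotent cells. Zscan4 genes encode zinc finger proteins of the cleavage-stage mouse embryo, which in embryonic stem cells appear in a small, changing fraction of the cells and are linked to telomere lengthening by recombination.

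Probe sequences are given because the Zscan4 genes are near-identical copies and Terf2 has probes for separate transcript variants. Which gene or variant a probe reads was taken from its annotation, as no probe was aligned to a transcript. The sequences below come from the scanner files, 5′ to 3′. The Terf2 probe that differed most between the clones, both Tinf2 probes and the Zscan4c probe whose annotation also lists Zscan4d are given whole. For the other probes shown, the first 30 of 60 bases are given. The probes of Tert, Terf1, Pot1a, Dkc1 and Rif1 are not shown. Capitals mark 8 bases of the telomere repeat.
Terf2 A_52_P391210: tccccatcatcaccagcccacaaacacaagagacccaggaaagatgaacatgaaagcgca
Terf2 A_55_P2034345: tatgttgagcccagatgagagattttttca
Terf2 A_55_P2034350: atggcttccttgcattgggtgtactcttac
Tinf2 A_52_P639551: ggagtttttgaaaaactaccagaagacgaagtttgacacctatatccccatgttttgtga
Tinf2 A_55_P2087865: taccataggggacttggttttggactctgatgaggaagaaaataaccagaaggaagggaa
Zscan4c A_52_P363843: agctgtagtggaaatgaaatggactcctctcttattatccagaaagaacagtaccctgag
Zscan4c A_55_P2007017: tacagtgttcttgacagaagcctggcattc
Zscan4c A_55_P2019533: atcccaagtcTTAGGGTTgcaagttaaatg
Gm4186 A_55_P2007016: tcatcccaagtcTTAGGGTTgcaagttaaa
Zscan4f A_55_P2007986: atgttgcaagtaaattgtactgtcccaata

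Gm4186, named Zscan4-ps3 by RefSeq, is shown because its probe overlaps a Zscan4c probe over 58 bases, of which 56 were identical and 2 different. A match to 8 bases of the telomere repeat, TTAGGG read in any register and on either strand, was found in 2 of the 14 probes (1 of Tert and 1 of Zscan4c) and in 172 of all 39429 probes (0.436%). The GC content of the 14 probes ran from 35% to 50%, beside a median of 41.7% over all probes.

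The promoters of the Zscan4 genes were near-identical too within the windows compared. RefSeq promoters (GRCm38.p6, 300 bases around each start) were given for 8 of the 10 genes, and 60-base windows of those with a TATAAAA are shown with that motif in capitals. Zscan4b, which is not one of the 10 genes, is added as a further copy. The windows lie at chr7:10905062-10905121 (minus strand) for Zscan4b, chr7:11005651-11005710 (plus) for Zscan4c, chr7:11166194-11166253 (minus) for Zscan4d and chr7:11397844-11397903 (plus) for Zscan4f.
Zscan4b: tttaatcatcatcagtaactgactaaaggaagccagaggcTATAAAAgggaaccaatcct
Zscan4c: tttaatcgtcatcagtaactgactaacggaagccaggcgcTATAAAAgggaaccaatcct
Zscan4d: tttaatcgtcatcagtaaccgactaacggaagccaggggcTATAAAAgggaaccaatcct
Zscan4f: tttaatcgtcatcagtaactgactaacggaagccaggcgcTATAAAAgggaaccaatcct

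Over these 60 bases Zscan4c and Zscan4f differed at 0 positions, Zscan4d differed from each of them at 2, and Zscan4b differed from the other three at 4. The windows were aligned on the motif, so its own match was fixed, and the rest of each promoter was not compared. The motif was present in the promoters of 4 of the 9 genes looked at, Zscan4b included, and these were the Zscan4 genes. On either strand it was present in 5.48% of 32851 promoters of the same length. It began 54 bases before the annotated start of Zscan4c, 65 before that of Zscan4d, and 31 before those of Zscan4b and Zscan4f.

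The telomere genes and the Zscan4 genes were split by the scanner software's flag for signal well above background. On both arrays 6 of the 9 genes with a probe passed it, namely Tert, Terf2, Pot1a, Tinf2, Dkc1 and Rif1. Leaving out Terf1, which had no unflagged value on both arrays, this was 6 of 8 genes. With so few genes that share is not far from 61.3%, that of the 22753 genes with a value on both arrays. Terf1 was also well above background on both, but its only spot was flagged as non-uniform on the array of clone 1, so it was left out of the counts. Zscan4c and Zscan4f were not well above background on either array. By a looser flag of the software, for positive and significant signal, Zscan4c passed on both arrays and Zscan4f did not. In bulk RNA such as this, fewer cells that express a gene and less RNA per cell cannot be told apart.

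None of the 6 measured genes was 2-fold apart between the clones. Of 13928 genes measured on both arrays, 1.51% were higher in clone 2 by 2-fold or more and 1.04% in clone 1, so a count of 0 among 6 genes is near that background. The same holds for each gene list below with a count of 0. Terf2 and Tinf2 were higher in clone 2 and the other 4 genes in clone 1, where 56.9% of all measured genes were higher in clone 2. The signs of Tert and Tinf2 turned under normexp, a model-based background correction, and that of Terf2 turned under 3 of the 5 alternatives run. Normexp was run on the raw mean spot signal, with an offset of 50 added. Such an offset by itself makes the log2 differences of low signals smaller, and its share was not separated. The median difference of the 6 genes, clone 2 minus clone 1, was -0.13 on the log2 scale, beside 0.05 for all measured genes, which had a standard deviation of 0.40 and of which 90.9% lay within 1.5-fold.

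**Figure D1:**
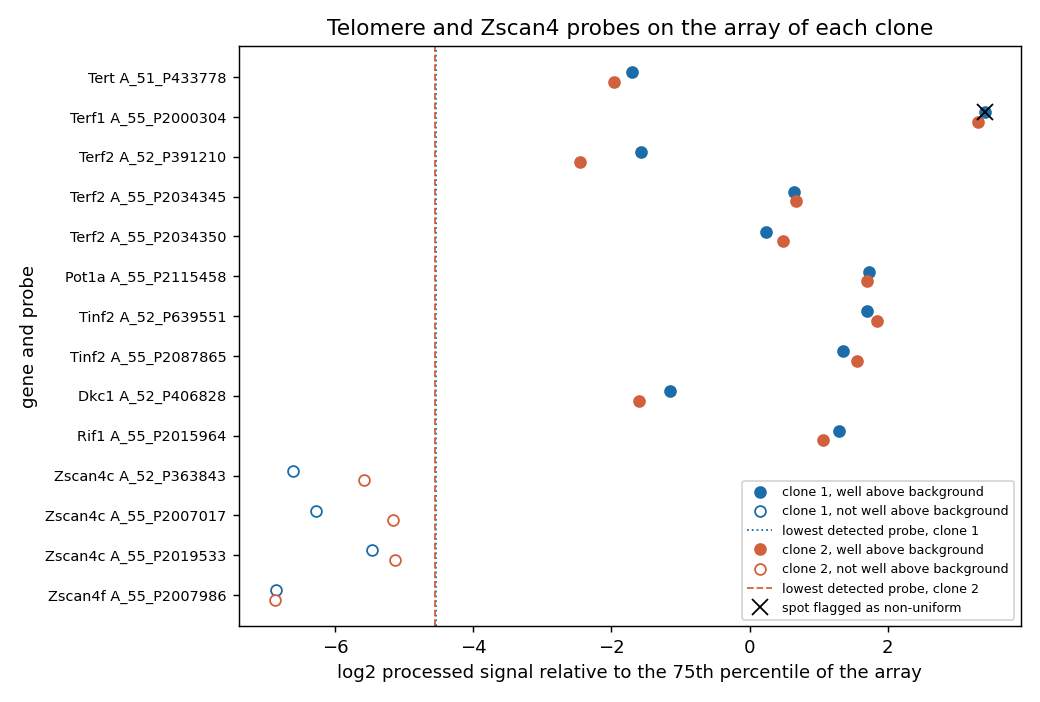
Log2 processed signal of each probe relative to the 75th percentile of its array (x axis) for the 14 probes (y axis), blue for clone 1 and orange for clone 2, with 1 array each and no error bar. Filled points are well above background, open points are not, the cross marks the flagged Terf1 spot, and the vertical lines mark the lowest detected probe; the 10 telomere gene probes lie right of the lines and the 4 Zscan4 probes left of them.

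Terf1 and Terf2 encode the shelterin proteins TRF1 and TRF2, which bind double-stranded telomere repeats. Terf1 (chr1:15833432-15833491, mm9, plus strand) had a processed signal of 8718 in clone 1, on the flagged spot, and 7228 in clone 2. Against the 75th percentile of its array this was 3.41 and 3.31 on the log2 scale, a difference of -0.10. Both signals lay far above the negative control spots, at 1090 times and 1010 times their median.

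The 3 Terf2 probes disagreed on the direction. Probe A_52_P391210 (chr8:109600701-109600760, mm9, minus strand), whose annotation lists both transcript variants, had signals of 276 in clone 1 and 132 in clone 2. Relative to the 75th percentile these were -1.57 and -2.46 on the log2 scale, which made clone 1 1.85-fold higher, a log2 difference of -0.89. Of all measured genes, each by its brightest probe, 3.49% were at least as far apart. Probe A_52_P391210 was the dimmest of the 3 and was not set against probes of like signal.

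The other two probes of Terf2 each list 1 transcript variant and did not show that difference. Variant 1 was read by probe A_55_P2034345 (chr8:109593822-109593881), with signals of 1287 and 1158, levels of 0.65 and 0.67 and a difference of 0.02 on the log2 scale. Variant 2 was read by probe A_55_P2034350 (chr8:109599420-109599479), with signals of 968 and 1015, levels of 0.24 and 0.48 and a difference of 0.24. The brightest of the 3 probes, that of variant 1, gives the value of Terf2 in all counts.

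Across the 3 Terf2 probes the differences spanned 1.13 on the log2 scale. Of 3493 genes with at least 2 measured probes, 2.06% had a span at least as wide, and of the 467 genes with 3 such probes 3.21% did. Repeated spots of 1 probe within an array had a median standard deviation of 0.07 in clone 1 and 0.08 in clone 2. Combined, these give 0.11 for a difference, and 0.15 for dim probes, those below -1 on the log2 scale, as A_52_P391210 was. This spot spread leaves out labelling, hybridisation and culture, so it is not the spread expected between clones. None of the 6 measured spots next to probe A_52_P391210 on the array was 2-fold apart, and their median difference was -0.03. With normexp background correction its difference was -0.34 and the span 0.64, and over the other alternatives its difference ran down to -0.96.

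**Figure D2:**
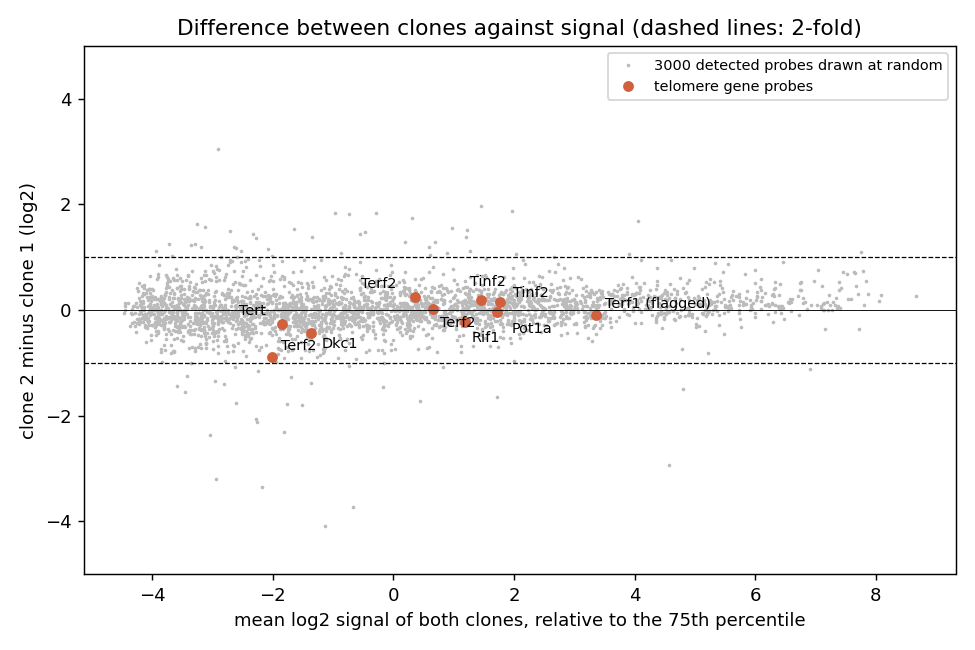
Difference between the clones (y axis, clone 2 minus clone 1, log2) against the mean log2 signal of both arrays relative to the 75th percentile (x axis), for 3000 detected probes drawn at random in grey and the telomere gene probes in orange. The dashed lines mark 2-fold; the 10 orange points lie between them, and the lowest is the Terf2 probe at -0.89.

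Pot1a encodes a shelterin protein that binds the single-stranded telomere overhang, and Tinf2 encodes TIN2, which joins the double-strand binding proteins to the rest of the complex. Pot1a (chr6:25693898-25693957, mm9, minus strand) had signals of 2715 in clone 1 and 2361 in clone 2, at levels of 1.73 and 1.70 on the log2 scale and a difference of -0.03. That difference was smaller than the spot spread of 0.11, which comes from repeated spots within each array.

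The probes of Tinf2 abut one another on chromosome 14 and moved alike. Probe A_52_P639551 (chr14:56298188-56298351, mm9, minus strand) had signals of 2655 and 2611 and log2 levels of 1.70 and 1.85, a difference of 0.15. Probe A_55_P2087865 (chr14:56298352-56298411) had signals of 2100 and 2123 and log2 levels of 1.36 and 1.55, a difference of 0.19. Their differences were 0.04 apart, and 91.3% of genes with at least 2 measured probes were at least as far apart. With normexp background correction the first of them turned to -0.01.

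The rest of shelterin was given gene by gene. Acd, which encodes TPP1, the partner of POT1, stood at 2.18 and 2.32 on the log2 scale in clone 1 and clone 2. Terf2ip, which encodes RAP1, the partner of TRF2, stood at -1.24 and -1.37. Its difference of -0.13 was -0.02 by a second probe.

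Pot1b, the other mouse POT1 gene, was the shelterin gene not well above background on either array, with signals of 32.7 and 25.6. Both signals were positive and significant by the software's looser flag. Over the 5 shelterin genes measured on both arrays, 3 were higher in clone 2 and 2 in clone 1, with 0 genes 2-fold apart and a median difference of 0.02 that ran from -0.05 to 0.03 over the alternatives.

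Tert encodes the reverse transcriptase of telomerase. Its probe (chr13:73786429-73786488, mm9, plus strand) had signals of 250 in clone 1 and 185 in clone 2, which were 31.4 and 26.0 times the median negative control spot. Relative to the 75th percentile the levels were -1.71 and -1.97 on the log2 scale, so that clone 1 was 1.20-fold higher, a difference of -0.26. Among measured genes, 35.6% were at least as far apart, and with normexp background correction the sign turned, to 0.02. Of the 4 measured spots next to the Tert probe on the array, 1 was 2-fold apart, with a median difference of 0.18.

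Dkc1 encodes dyskerin, which binds and stabilises the telomerase RNA and also modifies ribosomal RNA. Its probe (chrX:72354473-72354532, mm9, plus strand) had signals of 369 in clone 1 and 240 in clone 2, at log2 levels of -1.15 and -1.60. Clone 1 was 1.36-fold higher, a difference of -0.44, and 15.5% of measured genes were at least as far apart. The difference was -0.23 with normexp background correction, with clone 1 still higher.

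A further list held genes of telomerase, assembly factors included. All 12 were well above background on both arrays, beside 61.3% of all genes. Of them 0 were 2-fold apart, near the background given above, with 6 higher in clone 2 and 5 in clone 1. Ruvbl2, an ATPase used in assembly, was at -0.00. The median difference was 0.01 and ran from -0.13 to 0.01 over the alternatives.

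Within that list the highest signal was that of Nhp2, a protein that binds the RNA beside dyskerin, at 5.61 in clone 1 and 6.07 in clone 2 on the log2 scale. Nhp2 was 1.38-fold higher in clone 2 while Dkc1 was 1.36-fold higher in clone 1. Terc, the RNA template itself, had signals of 119 and 93.0, a log2 difference of -0.18 that ran from -0.26 to 0.30 over the alternatives. Terc was named after its value was seen, since it is the partner of Tert.

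Rif1 encodes a protein that controls replication timing and the repair of DNA breaks and, in mouse embryonic stem cells, holds Zscan4 genes down. Its probe (chr2:51977508-51977567, mm9, plus strand) had signals of 2015 in clone 1 and 1529 in clone 2, at log2 levels of 1.30 and 1.07. Clone 1 was 1.17-fold higher, a difference of -0.22, and 42.0% of measured genes were at least as far apart. Over the alternatives the difference ran from -0.33 to -0.22, so clone 1 was higher in each.

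The list of break response genes includes Trp53bp1 and the shieldin genes. All 12 were well above background on both arrays, beside 61.3% of all genes. Of them, 5 were higher in clone 2 and 7 in clone 1. The median difference of -0.06 ran from -0.14 to 0.01 over the alternatives. Xrcc5, which encodes Ku80 of the end-joining complex, was the gene of that list at least 2-fold apart. Among all measured genes, 1.04% were higher in clone 1 by 2-fold or more. The single probe of Xrcc5 had signals of 1870 in clone 1 and 126 in clone 2, 13.2-fold higher in clone 1. The log2 difference of Xrcc5, -3.72, was -2.86 with normexp background correction. Spots next to its probe on the array were not examined, and no second probe was there to compare. Xrcc6, its Ku70 partner and the gene of the list with the highest signal, stood at 3.50 and 3.55 on the log2 scale.

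The authors' deposited table gave the same order of the clones as the scaled scanner signals for the 10 telomere gene probes of the set but the variant 1 probe of Terf2. In that table, probe A_52_P391210 of Terf2 was at 243 in clone 1 and 138 in clone 2, and Dkc1 at 328 and 249. Tert was at 221 and 194, and the log2 difference of Rif1 was -0.30. Variant 1 of Terf2 was at 1236 and 1225, a log2 difference of -0.01.

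**Figure D3:**
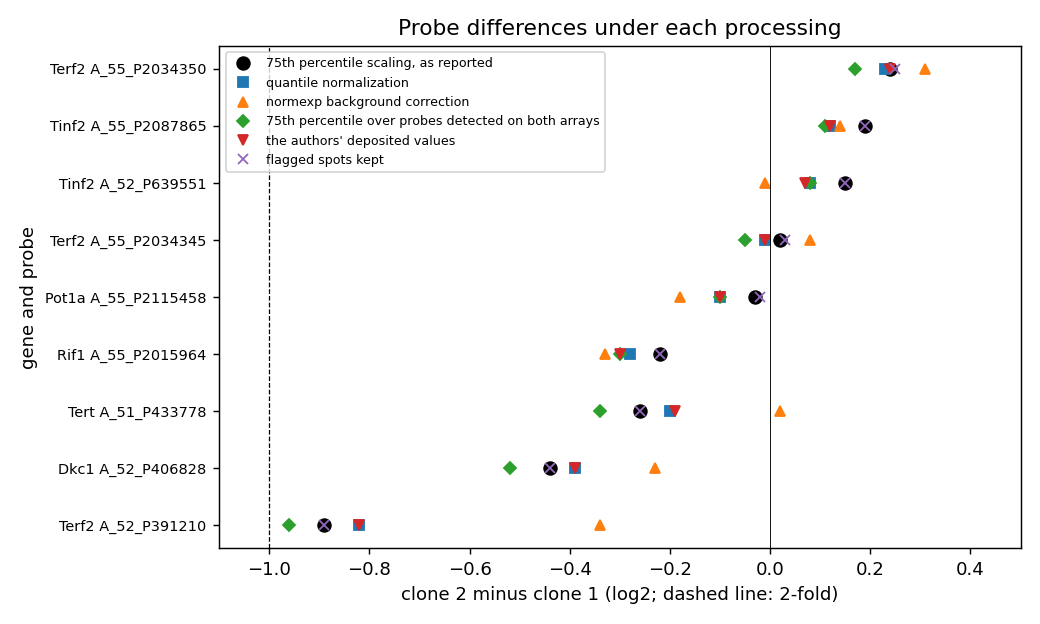
Difference between the clones (x axis, clone 2 minus clone 1, log2) of the 9 telomere gene probes with unflagged spots (y axis) under the reported scaling (black) and 5 alternatives (coloured symbols); the dashed line marks 2-fold. No symbol passes 2-fold, and the widest range is that of the Terf2 probe, from -0.96 to -0.34.

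Zscan4c was read by 3 probes, none of them well above background on either array. Probe A_52_P363843 (chr7:11594425-11594484, mm9), whose annotation also lists Zscan4d, had signals of 8.32 in clone 1 and 15.2 in clone 2. Probe A_55_P2007017 (chr7:11595690-11595748), whose annotation shares transcripts with that of the Gm4186 probe, had 10.5 and 20.2. Probe A_55_P2019533 (chr7:11595751-11595810) had 18.5 and 20.7. All 6 values were positive and significant by the looser flag, which 75.7% of all probes passed on both arrays.

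Against the 153 negative control spots, which had a median of 7.96 in clone 1 and 7.13 in clone 2, the Zscan4c signals were 1.05 to 2.33 times the median in clone 1 and 2.13 to 2.90 times in clone 2. In clone 1, A_52_P363843 exceeded 97 of the 153 spots, and the third probe, A_55_P2019533, exceeded 151. In clone 2 each of the 3 exceeded 151. The software's error for these spots ran from 46.2% to 85.5% of the signal in clone 1 and from 35.9% to 45.7% in clone 2, so no fold between the clones is given.

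Values in clone 2 were the higher ones for all 3 Zscan4c probes, but the overlapping Gm4186 probe had the opposite order, with 24.5 in clone 1 and 16.5 in clone 2. By the authors' deposited table the order of the clones was the same for each of these 4 probes. Of the 4 measured spots next to A_55_P2007017 on the array, 2 were 2-fold apart, with a median difference of 0.69.

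Zscan4f was at the level of the negative control spots. Its probe (chr7:11987608-11987667, mm9), whose annotation also lists Zscan4c and Zscan4d, had signals of 7.05 in clone 1 and 6.19 in clone 2, neither of them positive and significant. Both were surrogate values, which the software puts in place of a signal that it cannot tell from background. They exceeded 9 and 0 of the 153 negative control spots. Zscan4d was listed by 3 probes named for other Zscan4 genes, and none of the 3 was well above background.

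The remaining copies gave like values. The Zscan4e probe, whose annotation also lists Zscan4c, Zscan4d and Zscan4f, had signals of 8.47 and 8.03. The pseudogene Zscan4-ps1 had 8.84 and 7.68, and no value of either probe was positive and significant. These values were surrogates too. Over the family, 7 probes named for a Zscan4 gene were on the array and 0 were well above background. The lowest signal of a detected probe was -4.54 and -4.55 on the log2 scale in clone 1 and clone 2, and the 4 probes of Zscan4c and Zscan4f lay between -6.88 and -5.13.

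**Figure D4:**
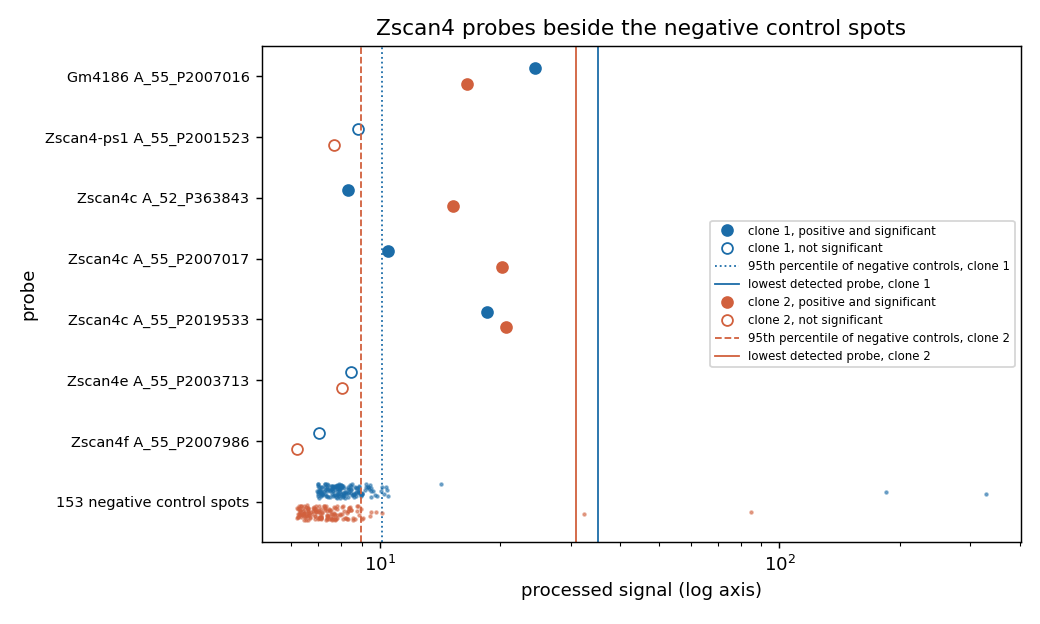
Processed signal (x axis, log axis) of the 7 Zscan4 family probes and the 153 negative control spots (y axis), blue for clone 1 and orange for clone 2. Filled points are positive and significant and open points are not, the dotted and dashed lines are the 95th percentiles of the negative controls (10.1 and 8.99), and the solid lines mark the lowest detected probe, which no Zscan4 probe reaches.

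Other genes named for a SCAN domain were measured at about the share of all genes. Of 12 such genes on the array, Zscan10, Zscan12, Zscan18, Zscan20, Zscan21, Zscan22 and Zscan26 were well above background on both arrays, and the other 5 on neither, beside the 61.3% of all genes given above. Zscan10, a pluripotency factor of embryonic stem cells, was at 1.69 and 2.07 on the log2 scale, 1.30-fold higher in clone 2. A second probe of it gave a difference of -0.04.

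The 2-cell genes, which turn on with Zscan4 in the cleavage embryo, were mostly at background. Of 17 listed, 13 had a probe, 2 were well above background on both arrays and 11 on neither, beside 61.3% of all genes on both. The 11 were Zscan4c, Zscan4e, Zscan4f, Tcstv1, Tcstv3, Usp17lc, Usp17le and Tdpoz1 to Tdpoz4. With the looser flag 6 of the 13 passed on both arrays, beside 80% of all genes.

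Among the 11, signals were low in both clones. Tcstv3 had 10.8 and 12.7, Tcstv1 had 7.17 (a surrogate) and 8.26, and Usp17lc, at the upper end, had 17.3 and 26.3. The pair above background was Zfp352, a zinc finger gene, with signals of 2033 and 1815 (a difference of 0.01) and Usp17la, with 82.4 and 81.5 (0.16). The difference of Usp17la was 0.61 with normexp background correction, and its second probe, not well above background on either array, was at -0.85. BC147527, outside the list and named after its value was seen, is described in the scanner files as like a 2-cell-stage gene. It had 243 and 258 and was well above background on both arrays. Zscan4a, Zscan4b, Zscan4d and Duxf3, the mouse Dux gene that drives this programme, had no probe.

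Genes that act on Zscan4 were present on both arrays for the most part. Of 14 listed, 12 were well above background on both, beside 61.3% of all genes. Of the 12, 7 were higher in clone 2 and 5 in clone 1, with differences from -0.31 to 0.38. Their median of 0.08 ran from -0.04 to 0.08 over the alternatives. Ehmt2, the histone methyltransferase G9a, had the highest signal, at 4.96 and 5.31 on the log2 scale. Rif1 belongs to this list, at -0.22.

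The pair of activators of the Dux and Zscan4 programme were dim. Dppa2 had signals of 21.3 in clone 1 and 8.28 in clone 2 and did not pass that flag in either clone. Dppa4 had 37.9 and 43.6 and was well above background in clone 2 only, with both values near the lowest detected signal. With the looser flag 13 of the 14 genes passed on both arrays, beside 80% of all genes.

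Most genes listed for telomere replication and telomere chromatin were measured. Of 14 replication genes, 13 were well above background on both arrays, beside 61.3% of all genes. Of the 13, 4 were higher in clone 2 and 9 in clone 1, with 0 genes 2-fold apart and a median of -0.09 (-0.21 to -0.05 over the alternatives). Dclre1b, the Apollo nuclease that trims telomere ends, was well above background on neither array, with signals of 10.5 and 6.53. Tnks2, a tankyrase, had the highest signal of these, at 4.92 and 4.83 on the log2 scale.

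All 11 chromatin genes were well above background on both arrays, beside 61.3% of all genes. Of the 11, 5 were higher in clone 2 and 6 in clone 1, with 0 genes 2-fold apart and a median of -0.01 (-0.17 to 0.00 over the alternatives). H3f3b, which encodes histone H3.3, had the highest signal, at 5.27 and 5.20. Atrx, which deposits H3.3 at telomeres, had signals of 318 and 181, a log2 difference of -0.64, and was named after its value was seen. With normexp background correction that difference was -0.18. Its other probes gave -0.69 and -0.24.

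**Figure D5:**
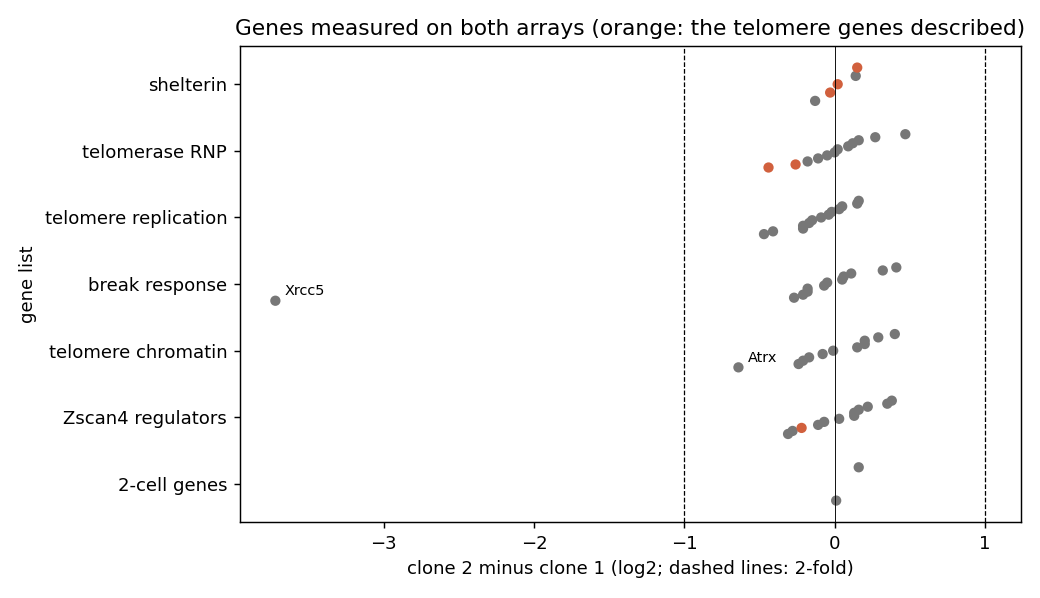
Difference between the clones (x axis, clone 2 minus clone 1, log2) of every gene well above background on both arrays, by gene list (y axis), with the genes of the set in orange and all others in grey; the dashed lines mark 2-fold. Xrcc5 is the only point past a dashed line, and the 2-cell list has 2 points because its other 11 genes with a probe were not well above background.

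Markers of the labelled cell type were present, beside 61.3% of all genes well above background on both arrays. All 5 markers of primed pluripotency (Pou5f1, Fgf5, Otx2, Pou3f1 and Dnmt3b) were well above background on both arrays, at log2 levels of 2.34 to 5.98 in clone 1 and 2.14 to 6.23 in clone 2. All 5 fibroblast markers (Col1a2, Col3a1, Dcn, Tagln and Thy1) were too, at 1.82 to 4.88 and 1.97 to 5.01, with a median difference of 0.15 and none at background. Their part in the telomere gene values was not tested.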

How the data were processed

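RNA of both clones was labelled with Cy3 from 0.2 ug and hybridised to 1-colour Agilent arrays (design 026655), per the labels and the file headers. The authors' scanner files, deposited after Feature Extraction 11.0.1.1 (protocol GE1_1100_Jul11, positions on mm9, per the file headers), hold the processed signal intensity, corrected for background but not between arrays. The arrays shared 1 slide and 1 scan. The authors' deposited normalized values are also an intensity, made by a method not given in the sources used here. These values served as an alternative.

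Log2 signals were averaged over unflagged spots (277 and 246 flagged), and the 75th percentile (819 and 726) was subtracted. A probe was detected where 50% of its spots were well above background, as were 22598 probes in clone 1 and 22633 in clone 2. A gene took the value of its brightest probe, named through RefSeq (26055 probes matched by accession, 3195 by symbol, 930 by older symbol, 9249 by none). Genes counted as apart at 2-fold, detected on both arrays. Differences are clone 2 minus clone 1. Named genes were all members, and in each of 9 lists those at least 2-fold apart, detected on 1 array or neither, and with the highest signal. The members and lists were chosen with earlier results of these data known. With 1 array per clone, there was no test. The number of arrays limits the precision. Scripts were tested on simulated data (Python 3.11.15, pandas 2.3.3, limma 3.58.1).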

Additional observations from a re-analysis of the deposited data

How the results depend on the processing

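No paired analysis was possible because each clone had 1 array and so no result came from a test; for the same reason no array could be left out. Under quantile normalization, normexp, the 75th percentile over detected probes, the authors' deposited values and flagged spots kept, 39 of 45 differences of the telomere gene probes moved by less than the spot spread of 0.11 and the 6 others moved under normexp. The count of genes of the set that were 2-fold apart was 0 under every alternative run, and 0 genes were 1.5-fold apart under the reported scaling. The 1.5-fold count takes the brightest probe of each gene, and the dimmer Terf2 probe A_52_P391210 was past that limit, at 1.85-fold. The count on both arrays was 6, and 7 with the looser flag or the negative control limit, which add Zscan4c, or with flagged spots kept, which adds Terf1. The median difference of -0.13 was -0.02 with no filter on detection, which adds the genes at background, and ran from -0.22 to -0.03 otherwise. Of the probe differences named above, that of Tert turned to 0.02 and that of Tinf2 A_52_P639551 to -0.01 under normexp, and that of Terf2 variant 1 ran from -0.05 to 0.08. The median of all measured genes shifted from 0.05 to 0.10 under normexp and to -0.03 with the 75th percentile over detected probes. Depth does not apply to arrays; for the Zscan4 probes, a signal near the negative controls limits what can be read.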
